A study of Mus musculus with 16 samples.

Results

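The sodium-potassium pump genes described here are the 3 beta subunit genes Atp1b1, Atp1b2 and Atp1b3 and the FXYD regulator genes Fxyd2 and Fxyd7. They were chosen by symbol, 5 of the 53465 genes of the count table, and each symbol matched 1 gene. All animals were C57BL/6J female mice, 8 weeks old at surgery. They underwent bilateral spared nerve injury (SNI), in which 2 branches of the sciatic nerve (tibial and common peroneal) were tied and cut and the sural branch was spared, or a sham operation in which the nerve was exposed and left intact. After 30 days, dorsal root ganglia (DRG) of levels L3 to L5 and the dorsal part of the matching lumbar spinal cord (SC) were taken. The tissue of 10 mice was pooled for each replicate, so single animals cannot be seen, and the tibial, peroneal and spared neurons of a ganglion were lysed together. Each lysate gave a poly(A)+ mRNA library and a ribosome footprint library, which makes 16 libraries in 8 groups of 2 replicates.

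The pump uses ATP to carry sodium out of the cell and potassium in. In neurons it restores the gradients that action potentials spend, and in glia it helps to clear extracellular potassium. The catalytic subunit carries the ions, the beta subunit is a glycoprotein that brings the complex to the membrane and affects its affinity for potassium, and a small FXYD protein can bind the complex and adjust its affinity for ions. Sensory neurons, spinal neurons and glia use different combinations of these subunits. In bulk tissue, fewer cells of a type and less RNA per cell cannot be told apart.

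The coding sequences show what sets the families apart. The 3 beta genes code for single-pass membrane proteins of 304 codons (Atp1b1), 290 codons (Atp1b2) and 278 codons (Atp1b3), whereas the FXYD reading frames hold 64 codons (Fxyd2) and 80 codons (Fxyd7). The FXYD coding sequences are printed whole because their short length bears on their footprint levels per coding kilobase below, with the FXYD motif that names the family in capitals. The first codon of the motif is codon 17 in Fxyd2 and codon 18 in Fxyd7. The sequences were read 5′ to 3′ from the principal transcripts of GENCODE M21, on GRCm38.
Fxyd2: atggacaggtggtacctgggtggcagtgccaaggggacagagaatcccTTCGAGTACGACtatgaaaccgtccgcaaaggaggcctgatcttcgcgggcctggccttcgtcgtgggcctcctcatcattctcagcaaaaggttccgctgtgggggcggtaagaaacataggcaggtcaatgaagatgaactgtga
Fxyd7: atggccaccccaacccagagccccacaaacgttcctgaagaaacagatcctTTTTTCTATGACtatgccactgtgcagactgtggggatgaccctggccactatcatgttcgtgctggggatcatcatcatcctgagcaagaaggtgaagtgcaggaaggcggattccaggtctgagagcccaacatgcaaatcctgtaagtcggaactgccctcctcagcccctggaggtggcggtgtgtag

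For the beta genes the first 90 coding bases are shown, with the start codon in capitals, since this stretch encodes the cytoplasmic end in which the isoforms differ visibly.
Atp1b1: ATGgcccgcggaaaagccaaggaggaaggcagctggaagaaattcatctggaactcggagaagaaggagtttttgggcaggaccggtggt
Atp1b2: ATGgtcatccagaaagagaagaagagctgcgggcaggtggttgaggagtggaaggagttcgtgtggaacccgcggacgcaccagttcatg
Atp1b3: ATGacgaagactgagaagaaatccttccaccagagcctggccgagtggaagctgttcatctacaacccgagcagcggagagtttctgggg

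Over the aligned coding bases, identity was 66.4% between Atp1b1 and Atp1b2, 61.8% between Atp1b1 and Atp1b3, 64.2% between Atp1b2 and Atp1b3 and 61.5% between Fxyd2 and Fxyd7. The longest exact run shared by the transcripts of any pair was 19 bases (Atp1b1 and Atp1b2), shorter than a footprint. The translated frames hold 3 N-glycosylation sequons in Atp1b1, 9 in Atp1b2 and 2 in Atp1b3, counted as the pattern asparagine, any residue but proline, then serine or threonine. The genes lie apart from each other on GRCm38. Atp1b1 spans chr1:164437109-164458355 on the minus strand and overlaps Nme7, on the opposite strand, by 617 bases, and as it is not stated whether reads were counted by strand, those of that stretch could belong to either gene. Atp1b2 spans chr11:69599736-69605942 on the minus strand, and Atp1b3 spans chr9:96332655-96364442 on the minus strand. Fxyd2 spans chr9:45399669-45410278 on the plus strand, 3509 bases from Fxyd6. Fxyd7 spans chr7:31042513-31051467 on the minus strand, 31 bases from Fxyd5 and 210 bases from Fxyd1, both on the same strand. The values below are counts over the exons of each gene.

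The libraries held 18176471 to 28553113 reads in genes for mRNA and 6898056 to 21613483 for footprints. The DRG and SC labels were checked against cell type markers in the sham mRNA libraries, where 9 of 9 sensory neuron markers were higher in DRG (median log2 difference 8.63) and 7 of 7 astrocyte and 8 of 8 oligodendrocyte markers were lower (medians −4.74 and −5.98). No marker of the sensory neuron list was at 0 in any library. Replicate libraries differed by more than the counting noise in footprints of DRG (mean chi-square per gene 2.64 to 3.3) and by little more than it in mRNA of DRG (1.06 to 1.07). In SC the mean was 1.76 in sham mRNA, 1.34 in SNI mRNA and 1.21 in the footprints of sham and of SNI. Differences of a few percent passed the test in DRG mRNA, so the size of each change stands beside its p.

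Levels are given as CPM, the reads of a gene relative to the library size after TMM scaling within each assay. Between genes they are compared per kilobase of the principal transcript for mRNA and per kilobase of coding sequence for footprints. In sham DRG, the mRNA level per kilobase was highest for Fxyd2, at 1439 ± 8.84 (SD, n = 2), followed by Atp1b1 at 772 ± 4.66, Fxyd7 at 751 ± 10.5, Atp1b3 at 204.5 ± 1.6 and Atp1b2 at 38.1 ± 0.0249. Fxyd2 is long known as the gamma subunit of the kidney pump, and in DRG it stood at the top of the 5 genes. This order rests on the length used. With the merged exonic length of the table, Fxyd7 led at 751, followed by Atp1b1 at 647, Fxyd2 at 227, Atp1b3 at 171 and Atp1b2 at 26.5, since the exons of Fxyd2 sum to 4005 bases while its principal transcript has 632. Atp1b1 and Fxyd7 are neighbours whose order turned with the length, and in SNI DRG Fxyd7, at 714 ± 3.57, lay above Atp1b1, at 639 ± 5.21. By footprints per coding kilobase the order in sham DRG was Fxyd2 at 2693 ± 24.7, Atp1b1 at 2439 ± 17.8, Fxyd7 at 1397 ± 7.96, Atp1b3 at 300.1 ± 3.39 and Atp1b2 at 153.6 ± 3.58. The order of Fxyd2 and Atp1b1 here rests on the length as well. Counts cover all exons of a gene, while the length is that of a single reading frame, 192 bases for Fxyd2 and 912 for Atp1b1. No other length was tried for footprints.

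In sham SC, Atp1b1, the most widely expressed beta subunit, led at 1113 ± 6.3 mRNA CPM per kilobase (SD, n = 2). Atp1b2, also known as the adhesion molecule on glia, followed at 465.7 ± 7.71. Fxyd7, a brain-enriched FXYD protein, was at 146.6 in both libraries, Atp1b3 at 87.2 ± 0.567 and Fxyd2 at 4.82 ± 0.157. The footprint levels per coding kilobase gave the same order, with 4364 ± 37.2 for Atp1b1, 2279 ± 7.32 for Atp1b2, 378.7 ± 11.2 for Fxyd7, 122.9 ± 4.78 for Atp1b3 and 19.4 ± 6.97 for Fxyd2. Every step of this order was larger than the spread of the replicates, and the merged exonic length left the mRNA order as it was.

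**Figure D1:**
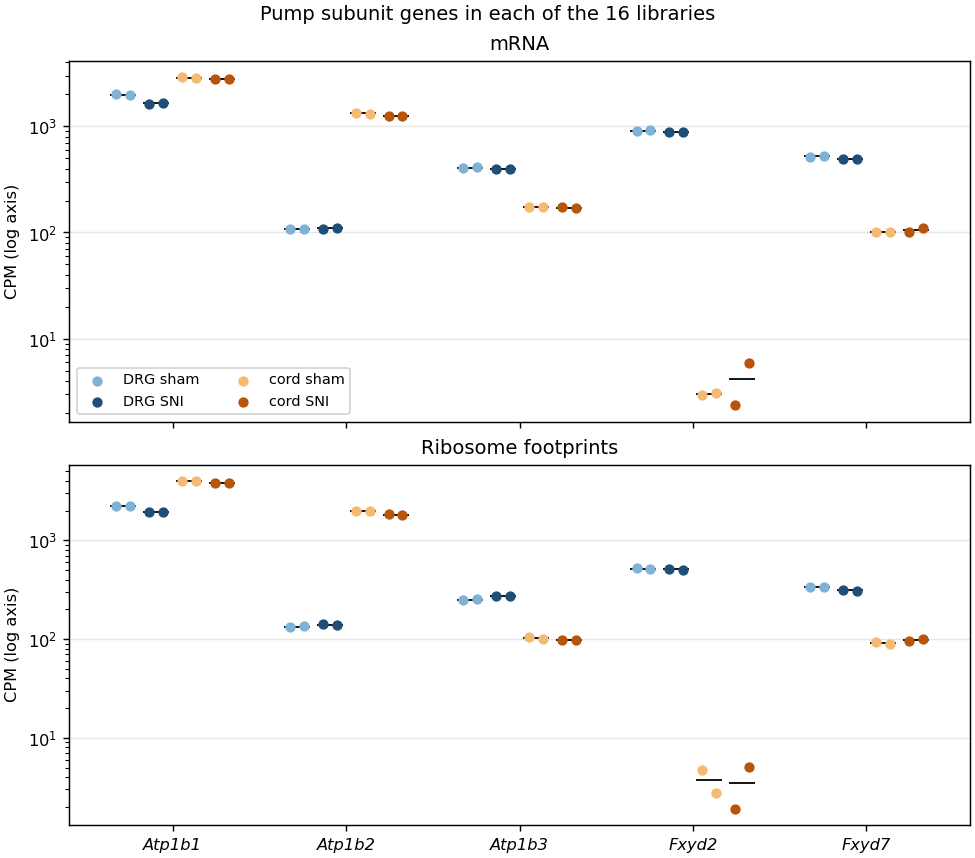
CPM (log axis) of the 5 pump genes in the mRNA libraries (top) and footprint libraries (bottom), 1 point per library, with a bar at the mean of the 2 replicates. Fxyd2 lies between 880 and 913 mRNA CPM in DRG and between 2.37 and 5.96 in SC, while Atp1b2 shows the opposite order of the tissues.

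All 5 genes differed between sham DRG and sham SC in mRNA, as did in footprints the 4 genes other than Fxyd2, which passed the filter on low counts there only through its DRG reads. Over all genes, 83.7% of 14706 genes were called in mRNA (41.4% higher and 42.3% lower in DRG) and 78.7% of 12729 were called in footprints (39.2% higher and 39.5% lower), so a call by itself separates these genes little from the rest and the sizes carry the comparison. A call is an adjusted p under 0.05 in edgeR's quasi-likelihood test, adjusted by Benjamini-Hochberg over every gene that was tested. In mRNA, 3 of the 5 were higher in DRG and 2 were lower.

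Of the 3 beta genes, Atp1b2 had the widest difference in favour of SC. Its mRNA was at 108.4 and 108.3 CPM in the sham DRG libraries and at 1339 and 1308 CPM in the sham SC libraries. The groups were far apart, with a level 12.1-fold higher in SC (log2 difference −3.60, SE 0.0262, edgeR adjusted p = 8.1e-51). Its footprints were at 131.4 and 135.8 CPM in sham DRG and at 1978 and 1987 CPM in sham SC, 14.6-fold higher in SC (log2 difference −3.87, SE 0.0332).

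Atp1b1 was also higher in SC, by far less. In mRNA it was at 2001 and 1984 CPM in sham DRG and at 2883 and 2860 CPM in sham SC, a 1.43-fold difference (log2 −0.52, SE 0.0191, edgeR adjusted p = 8.46e-26). Its footprints were at 2236 and 2213 CPM in sham DRG and at 4004 and 3956 CPM in sham SC, a 1.77-fold difference (log2 −0.82, SE 0.0179). The difference in mRNA did not pass the test against a 1.5-fold change (edgeR adjusted p = 1).

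Atp1b3, the third beta isoform, went the other way. Its mRNA was at 405.5 and 410.0 CPM in sham DRG and at 173.1 and 174.7 CPM in sham SC, 2.36-fold higher in DRG (log2 1.24, SE 0.0254). Its footprints, at 248.3 and 252.3 CPM against 105.3 and 99.7 CPM, were 2.49-fold higher in DRG (log2 1.31, SE 0.0389).

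Fxyd2 had the widest tissue difference of the 5 genes. In mRNA it was at 905.5 and 913.4 CPM in sham DRG (17718 and 16106 reads) and at 2.97 and 3.11 CPM in sham SC (82 and 71 reads), 301.5-fold higher in DRG (log2 8.24, SE 0.0452, edgeR adjusted p = 7.43e-55). This SE is smaller than counting noise alone would give for the few SC reads, so the p overstates the certainty. Ordered by the log2 difference in favour of DRG, Fxyd2 was number 25 of 14706 genes in mRNA. The footprints, at 520.4 and 513.7 CPM against 4.67 and 2.78 CPM, were 147-fold higher in DRG, a value that rests on 34 and 30 footprint reads in SC and is given with no test.

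Fxyd7 was higher in DRG to a lesser degree. Its mRNA was at 515.2 and 525.5 CPM in sham DRG and at 101.6 CPM in both sham SC libraries, 5.16-fold higher in DRG (log2 2.37, SE 0.0269). Its footprints were at 334.0 and 336.7 CPM against 92.8 and 89.0 CPM, a 3.75-fold difference (log2 1.91, SE 0.0351).

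The beta subunit signal of a tissue was therefore made up differently. Taking the 3 beta genes per kilobase as 100%, Atp1b1 made up 76.3% and 75.9% of the mRNA in the sham DRG libraries and 66.7% and 66.9% in the sham SC libraries. Atp1b2 made up 3.75% and 3.76% in sham DRG and 28.1% and 27.8% in sham SC. Atp1b3 made up 20.0% and 20.3% in sham DRG and 5.18% and 5.29% in sham SC. In footprints the contrast was of the same kind, with Atp1b2 at 5.21% and 5.41% in sham DRG and 33.5% and 33.9% in sham SC, and Atp1b3 at 10.3% and 10.5% against 1.86% and 1.77%. Atp1b1 made up the largest share in every library of both assays. These are shares of sequenced fragments per length, not of protein.

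**Figure D2:**
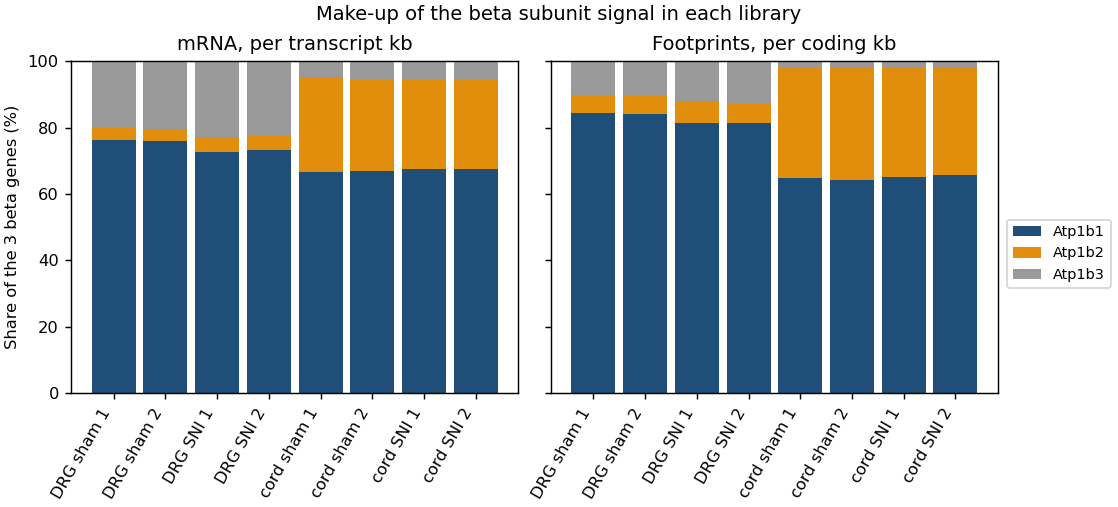
Share in percent of Atp1b1, Atp1b2 and Atp1b3 among the 3 beta genes in each library, from mRNA CPM per transcript kilobase (left) and footprint CPM per coding kilobase (right), 1 bar per library. Atp1b2 is at most 6.19% in the DRG bars and at least 27.2% in the SC bars, and the Atp1b1 share is lower in the SNI than in the sham bars of DRG.

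Translational efficiency (TE) is the footprint CPM over the mRNA CPM of the same lysate, so a log2 TE of 0 means that a gene takes the same share of both libraries. In sham DRG, the log2 TE was 0.16 and 0.16 for Atp1b1, and 65.9% and 65.8% of 13966 genes lay below it. Atp1b2 was at 0.28 and 0.33, above 70.2% and 72.4% of genes. Atp1b3 was lower, at −0.71 and −0.70, above 29.2% and 30% of genes. The FXYD genes were low as well, Fxyd2 at −0.80 and −0.83 and Fxyd7 at −0.62 and −0.64. By this measure the beta genes split, with Atp1b3 beside the FXYD genes rather than beside Atp1b1 and Atp1b2. The measure has no correction for length, so a comparison between genes also depends on how much of each transcript is coding. This was 834 of 1994 bases in Atp1b3, 870 of 2842 in Atp1b2 and 192 of 632 in Fxyd2.

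Of the 4 genes with enough reads in both tissues, 3 had a lower TE in sham DRG than in sham SC, where 43% of 12504 genes were called (20.4% higher and 22.6% lower in DRG). The log2 TE of Atp1b1 in sham SC was 0.47 in both lysates, and the difference was −0.28 (SE 0.0306, edgeR adjusted p = 1.01e-17). Atp1b2 in sham SC was at 0.56 and 0.60, a difference of −0.25 (SE 0.0457, edgeR adjusted p = 6.24e-07; 0.0616 with no filter on low counts). Fxyd7 in sham SC was at −0.13 and −0.19, a difference of −0.44 (SE 0.0526, edgeR adjusted p = 7.28e-15). Atp1b3 was at −0.72 and −0.81 in sham SC and did not pass the test (difference 0.09, SE 0.0502, adjusted p = 0.119). With the biological coefficient of variation fixed at 0.1, and against a 1.5-fold change, none of the 3 kept its call. Fxyd2, with 34 and 30 footprint reads in sham SC, passed the filter only through DRG and is given as values. In sham SC it was at 0.67 and −0.15, so its lysates were far apart, and its difference of −1.04 (SE 0.226) was −0.62 without SC sham replicate 1.

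**Figure D3:**
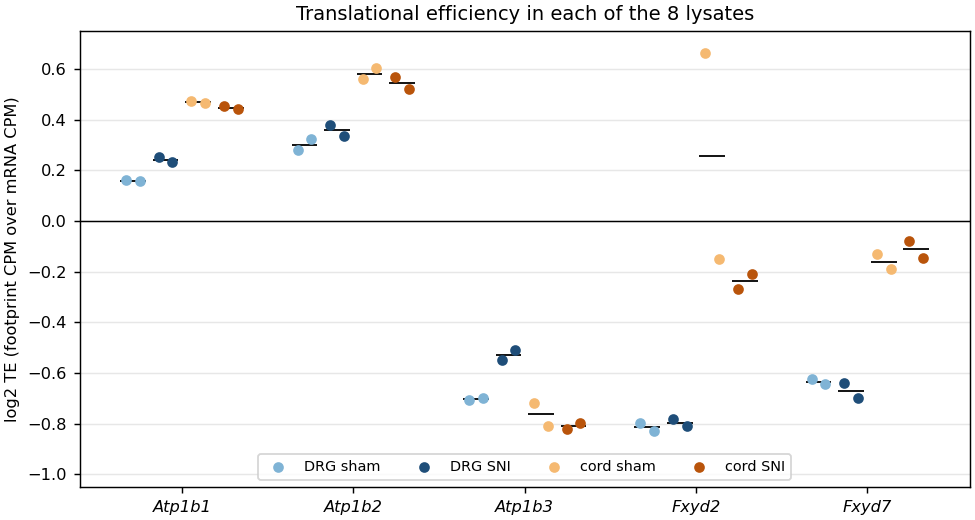
log2 TE of the 5 genes in each of the 8 lysates, 1 point per lysate, with a bar at the mean of the 2 replicates. Atp1b1 and Atp1b2 lie above 0 in all 8 lysates, Atp1b3 and Fxyd7 below 0 in all 8, and Atp1b3 in SNI DRG (−0.55 and −0.51) lies above sham DRG.

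SNI and sham were then compared within each tissue, to see how the expression and translation of the pump genes stood 30 days after injury. In DRG, the mRNA of 3 of the 5 genes fell and that of none rose, in a comparison that called 32.9% of 14494 genes (15.9% higher and 17% lower in SNI). The falls were small, and Atp1b1 had the largest of them. Where SNI and sham libraries are said below not to overlap, this is a weak criterion with so few libraries per group. How many of all genes did the same was not counted.

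Atp1b1 mRNA was at 2001 and 1984 CPM in the sham DRG libraries and at 1639 and 1658 CPM in the SNI libraries. Both SNI libraries were below both sham libraries, and the level fell by 17.3% (log2 fold change −0.27, SE 0.00483, edgeR adjusted p = 1.92e-32). This SE is smaller than counting noise alone would give for 74136 sham and 83082 SNI reads, so the p overstates the certainty. Of the genes tested, 14.8% had a larger absolute change. Its footprints went from 2236 and 2213 CPM in sham to 1954 and 1948 CPM in SNI, again without overlap, and fell by 12.2% (log2 −0.19, SE 0.011, edgeR adjusted p = 1.1e-30). In footprints 16.7% of 13038 genes were called, 8.4% higher and 8.28% lower in SNI.

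The footprints of Atp1b1 thus fell less than its mRNA. Its log2 TE was 0.16 in both sham lysates and 0.25 and 0.23 in the SNI lysates, a rise of 0.09 (SE 0.0113, edgeR adjusted p = 5.91e-12), where 7.43% of 12710 genes were called (4.22% higher and 3.21% lower in SNI). The rise in TE is a small one and did not pass DESeq2 (adjusted p = 0.729), nor edgeR without SNI replicate 1 (0.147) or without SNI replicate 2 (0.0564). The falls in mRNA and footprints held under DESeq2 and without any single library, but no change of a pump gene after SNI passed with the coefficient of variation fixed at 0.1 or against a 1.5-fold change.

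Markers of cell types moved in the same libraries. All 5 markers of large myelinated sensory neurons fell in DRG mRNA (median log2 fold change −0.33, against 0 over all genes), Pvalb, a calcium-binding protein of proprioceptors, by 0.74 on the log2 scale. Their summed level was 2841 and 2856 CPM in sham and 2281 and 2288 CPM in SNI. Of 9 general sensory neuron markers, 6 fell and 3 rose (median −0.07), and their sum was 6146 and 6143 CPM in sham and 6012 and 5980 CPM in SNI. The part of these neurons in the fall of Atp1b1 was not tested.

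Atp1b3 moved differently from Atp1b1. Its DRG mRNA was at 405.5 and 410.0 CPM in sham and 399.6 and 392.9 CPM in SNI, a log2 fold change of −0.04 (SE 0.0209) that did not pass (adjusted p = 0.138). Its footprints were at 248.3 and 252.3 CPM in sham and at 272.8 and 276.2 CPM in SNI, with both SNI libraries above both sham libraries, and rose by 9.75% (log2 0.13, SE 0.0376, edgeR adjusted p = 0.00553). The log2 TE rose by 0.18 (SE 0.0422, edgeR adjusted p = 0.00113), from −0.71 and −0.70 to −0.55 and −0.51. Atp1b3 thus had more footprints per mRNA in SNI DRG, by 1.13-fold. The footprint call was lost with DESeq2 (adjusted p = 0.0555) and without SNI replicate 2 (0.0628), and the TE call with DESeq2 (0.241) and without sham replicate 2 (0.0625).

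Atp1b2, the lowest of the 5 genes in DRG, passed no test there. Its mRNA was at 108.4 and 108.3 CPM in sham and 109.0 and 110.0 CPM in SNI (log2 fold change 0.01, SE 0.0293, adjusted p = 0.782). Its footprints were at 131.4 and 135.8 CPM in sham and 141.9 and 138.8 CPM in SNI (log2 0.07, SE 0.0364, adjusted p = 0.241). In the same mRNA libraries, 4 of 6 tested oligodendrocyte markers and 4 of 7 astrocyte markers fell and 1 astrocyte marker, Aldh1l1, a folate enzyme, rose by 0.47 on the log2 scale. The oligodendrocyte markers summed to 582.7 and 581.1 CPM in sham and 386.3 and 387.4 CPM in SNI, where SC held 10120 to 10620 CPM. In footprints the oligodendrocyte sum was 551.7 and 505.8 CPM in sham and 585.5 and 561.0 CPM in SNI. Skeletal muscle markers, 7 of 7 higher in SNI, summed to 44.9 and 48.5 CPM in sham and 123.8 and 125.4 CPM in SNI mRNA. The part of such tissue in the values of the pump genes was not tested.

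The make-up of the beta signal in DRG shifted by a few percent. The Atp1b1 share of mRNA was 76.3% and 75.9% in sham and 72.7% and 73.2% in SNI, and its share of footprints was 84.5% and 84.1% in sham and 81.4% and 81.3% in SNI. The Atp1b3 share was 20.0% and 20.3% of mRNA in sham and 22.9% and 22.4% in SNI, and 10.3% and 10.5% of footprints in sham and 12.4% and 12.6% in SNI. The Atp1b2 share was 3.75% and 3.76% of mRNA in sham and 4.39% and 4.41% in SNI, and 5.21% and 5.41% of footprints in sham and 6.19% and 6.07% in SNI. Sham and SNI did not overlap in any of these shares, but with 2 libraries per group this is a weak criterion, and the shares were not tested. The shares of the 3 genes sum to 100%, so a fall of Atp1b1 by itself raises the others, and neither Atp1b2 nor Atp1b3 was called in mRNA.

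**Figure D4:**
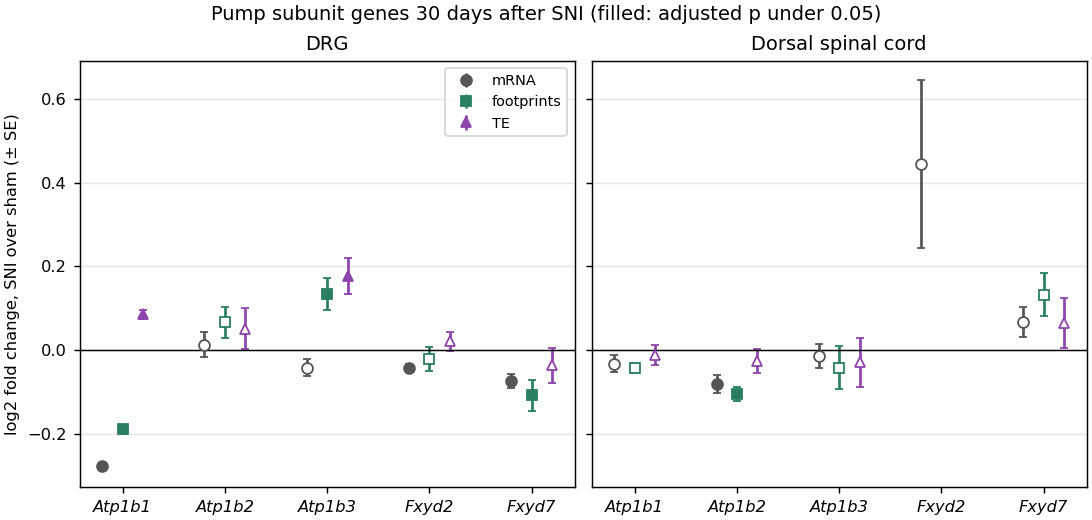
log2 fold change of SNI over sham, with the SE derived from the test, in mRNA (circles), footprints (squares) and TE (triangles), in DRG (left) and dorsal spinal cord (right). Filled symbols have an adjusted p under 0.05, and Fxyd2 has no footprint or TE point in the cord, where it was not tested. In DRG, Atp1b1 lies at −0.27 in mRNA and −0.19 in footprints, while Atp1b3 lies at 0.13 in footprints and 0.18 in TE.

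The FXYD genes changed little in DRG. Fxyd2 mRNA was at 905.5 and 913.4 CPM in sham and at 879.6 and 888.3 CPM in SNI, and fell by 2.85% (log2 −0.04, SE 0.00905, edgeR adjusted p = 3.83e-04). This SE, too, is smaller than counting noise alone would give for 33824 sham and 44564 SNI reads. The groups did not overlap, but the call was lost with DESeq2 (adjusted p = 0.122), with library sizes alone (0.42) and with all 4 conditions in 1 fit (0.283). Its footprints were at 520.4 and 513.7 CPM in sham and at 511.7 and 506.2 CPM in SNI (log2 −0.02, SE 0.029, adjusted p = 0.713), and its TE did not pass either (log2 0.02, SE 0.0234, adjusted p = 0.702).

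Fxyd7 mRNA was at 515.2 and 525.5 CPM in sham DRG and at 493.0 and 496.5 CPM in SNI DRG, and fell by 4.95% (log2 −0.07, SE 0.0164, edgeR adjusted p = 5.68e-04; 0.055 with library sizes alone). Its footprints, at 334.0 and 336.7 CPM in sham and 316.7 and 305.6 CPM in SNI, fell by 7.17% (log2 −0.11, SE 0.0373, edgeR adjusted p = 0.0322). SNI lay below sham in both assays, and the TE difference was −0.04 (SE 0.0416, adjusted p = 0.733). The footprint call was lost with DESeq2 (0.0941), with library sizes alone (0.109) and without SNI replicate 1 (0.059), SNI replicate 2 (0.374) or sham replicate 2 (0.056).

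In SC, 1 of the 5 genes was called in mRNA, where 4.05% of 14723 genes were called (2.09% higher and 1.96% lower in SNI). This gene was Atp1b2, the beta gene with the strongest cord bias. Its mRNA was at 1339 and 1308 CPM in sham and at 1244 and 1249 CPM in SNI, and fell by 5.41% (log2 −0.08, SE 0.0219, edgeR adjusted p = 0.0214). Its footprints went from 1978 and 1987 CPM to 1845 and 1793 CPM and fell by 6.98% (log2 −0.10, SE 0.0162, edgeR adjusted p = 1.91e-04), the only call among the 4 pump genes tested, where 2.24% of 12018 genes were called (1.21% higher and 1.03% lower in SNI). SNI lay below sham in both assays. The mRNA call was lost with DESeq2 (adjusted p = 0.226) and without SNI replicate 1 (0.215), SNI replicate 2 (0.282) or sham replicate 1 (0.159), and the footprint call with DESeq2 (0.0928).

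Markers of the cell types of the cord moved by similar amounts or more. Of 7 astrocyte markers in SC mRNA, 1 rose, Gfap, the intermediate filament of astrocytes, by 0.22 on the log2 scale, and 2 fell, and the list summed to 5202 and 5063 CPM in sham and 4976 and 5010 CPM in SNI. Of 5 motor neuron markers tested, 4 fell (median −0.71), with a sum of 97.2 and 95.8 CPM in sham and 61.6 and 62.1 CPM in SNI. Their part in the values of Atp1b2 was not tested.

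The other cord values passed no test. Atp1b1 mRNA was at 2883 and 2860 CPM in sham SC and 2797 and 2794 CPM in SNI SC (log2 −0.03, SE 0.0205, adjusted p = 0.443), and its footprints were at 4004 and 3956 CPM against 3830 and 3798 CPM (log2 −0.04, SE 0.0128, adjusted p = 0.101; 0.0177 with no filter on low counts). SNI was below sham in both assays of Atp1b1 without a call. Atp1b3 mRNA was at 173.1 and 174.7 CPM in sham and 172.9 and 170.1 CPM in SNI (log2 −0.01, SE 0.0296, adjusted p = 0.875), and its footprints at 105.3 and 99.7 CPM against 97.8 CPM in both SNI libraries (log2 −0.04, SE 0.0504, adjusted p = 0.806). Fxyd7 mRNA was at 101.6 CPM in both sham libraries and at 102.1 and 110.0 CPM in SNI (log2 0.07, SE 0.0356, adjusted p = 0.327). Fxyd7 footprints, at 92.8 and 89.0 CPM in sham and 96.6 and 99.6 CPM in SNI, did not overlap between the groups but did not pass (log2 0.13, SE 0.0511, adjusted p = 0.225).

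In SC, none of the 4 genes tested for TE was called by edgeR or DESeq2, and none had an unadjusted p under 0.05. Over all genes 0.253% of 11865 were called (0.169% higher and 0.0843% lower in SNI), and 838 had an unadjusted p under 0.05. The TE differences of the 4 genes ran from −0.03 to 0.06 on the log2 scale.

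Fxyd2 in SC deserves its own account, because its few reads were spread unevenly. The mRNA counts were 82 and 71 reads in the sham libraries and 57 and 135 reads in the SNI libraries, or 2.97 and 3.11 CPM against 2.37 and 5.96 CPM. SNI replicate 2 was above and SNI replicate 1 below both sham libraries, so the groups overlapped and the log2 fold change of 0.44 (SE 0.2) did not pass (adjusted p = 0.228). Without SNI replicate 2 it was −0.35 (adjusted p = 0.62), and without SNI replicate 1 it was 0.97 (edgeR adjusted p = 3.15e-05), so a single library set its sign. The footprint counts were 34 and 30 reads in sham and 15 and 36 reads in SNI, 115 in all and too few to be tested. With no filter the footprint log2 fold change was −0.03 (SE 0.252, adjusted p = 0.972).

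The same library stood out in most of the sensory neuron markers, 7 of 9 having their highest mRNA CPM there and 5 of these also their highest read count. In mRNA, SC SNI replicate 2 held 63 reads of Scn10a, a sodium channel of nociceptors, where the other SC libraries held 10 to 27. It held 61 reads of Avil, an actin-binding protein of sensory neurons, against 24 to 27, and 19 of Mrgprd, a receptor of nonpeptidergic nociceptors, against 2 to 9. Scn11a was at 40 against 15 to 30 reads, and Trpv1 at 16 against 6 to 9. Relative to library size, Prph was at 37.3 CPM against 31.5 to 33.7 CPM and Calca at 33.9 against 27.2 to 28.3 CPM. Pou4f1, at 21.7 against 19.8 to 21.8 CPM, was within the range of the other libraries and Isl1, at 2.03 against 2.32 to 2.39 CPM, below it. Over the 9 sensory neuron markers, SC SNI replicate 2 summed to 103.8 mRNA CPM and the other SC libraries to 84.0 to 89.8, and in footprints to 130.2 against 96.7 to 111.5. Whether DRG or root tissue contributed to Fxyd2 in this library was not tested.

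**Figure D5:**
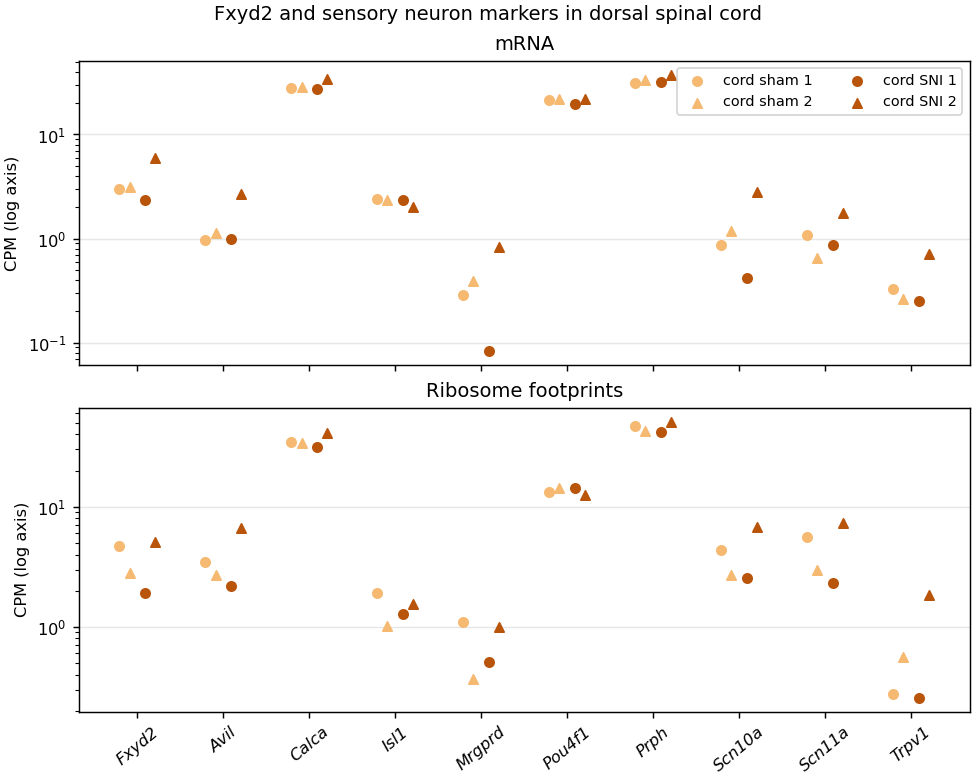
CPM (log axis) of Fxyd2 and of the 9 sensory neuron markers in the 4 SC libraries of each assay, mRNA above and footprints below, with circles for replicate 1 and triangles for replicate 2. The mRNA of Fxyd2, Avil, Calca, Mrgprd, Prph, Scn10a, Scn11a and Trpv1 is highest in SC SNI replicate 2, and that of Isl1 and Pou4f1 is not.

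The response to SNI was compared between the tissues as an interaction, the log2 fold change in DRG minus that in SC. In mRNA, 2 of the 5 genes were called, where 13.6% of 16716 genes were called. They were Atp1b1, with −0.27 in DRG and −0.03 in SC, and Fxyd7, with −0.07 in DRG and 0.07 in SC. Atp1b2, with 0.01 in DRG and −0.08 in SC, was just outside the threshold (difference 0.10, SE 0.0366, adjusted p = 0.0578). It passed edgeR's test with library sizes alone (adjusted p = 0.014), with no filter (0.0117), with the read minimum applied to every library (0.0313) and without SC sham replicate 1 (0.00608) or SC sham replicate 2 (2.59e-05), but not with DESeq2. In footprints, all 4 genes with enough reads in both tissues were called, where 7.12% of 14194 genes were called. Atp1b1 had −0.19 in DRG and −0.04 in SC, and Fxyd7 had −0.11 in DRG and 0.13 in SC. Atp1b2 and Atp1b3 differed in the other direction, Atp1b2 with 0.07 in DRG and −0.10 in SC and Atp1b3 with 0.13 in DRG and −0.04 in SC. With DESeq2, the footprint calls of Atp1b3 (adjusted p = 0.45) and Fxyd7 (0.0998) and the mRNA call of Fxyd7 (0.118) were lost. The response of Fxyd2 did not pass in mRNA (difference −0.48, SE 0.198, adjusted p = 0.107). In footprints Fxyd2 passed the filter only through its DRG reads, and its difference of 0.03 (SE 0.241), which rests on 115 SC reads, is given as a value.

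Of 10 further subunit and partner genes of the pump, with symbols beginning Atp1b, Fxyd or Nkain, 7 had enough reads in DRG mRNA, and 3 rose and none fell (median log2 fold change 0, as over all genes). In that comparison 32.9% of all genes were called, 15.9% higher and 17% lower in SNI. The 3 that rose were other FXYD genes. Fxyd6 rose by 0.35 (SE 0.0298, edgeR adjusted p = 5.65e-12), from 116.3 and 113.7 CPM in sham to 143.6 and 151.3 CPM in SNI. Fxyd1, or phospholemman, rose by 0.24 (SE 0.0348), from 64.4 and 64.7 CPM to 75.2 and 77.2 CPM. Fxyd5, or dysadherin, rose by 0.16 (SE 0.0487), from 33.3 and 34.2 CPM to 37.1 and 38.6 CPM. The same 3 genes rose in footprints, by 0.26, 0.15 and 0.19 on the log2 scale, and none of the 7 was called in TE. Over all genes, 8.4% rose in DRG footprints and 7.43% were called in TE. Fxyd6 had a low TE, with a log2 TE of −1.68 and −1.59 in the sham DRG lysates. All 3 are genomic neighbours of the FXYD genes whose mRNA fell, Fxyd6 of Fxyd2 and Fxyd5 and Fxyd1 of Fxyd7. In SC, none of the 8 tested in mRNA or of the 7 tested in footprints was called, against 4.05% and 2.24% of all genes. Atp1b4 and Fxyd4 had too few reads to be tested in either tissue.

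Among 12 further P-type pumps of calcium or protons, 8 were tested in DRG mRNA, and 2 rose and 4 fell (median log2 fold change −0.05). Over all genes, 15.9% rose and 17% fell there. Atp2a1, the calcium pump of fast skeletal muscle, rose by 1.67 (SE 0.0967), beside the muscle markers given above, and Atp2a2, the widely expressed endoplasmic reticulum calcium pump, fell by 0.27 on the log2 scale (SE 0.0203). Atp2b2 and Atp2b3, plasma membrane calcium pumps of neurons, each fell by 0.24 on the log2 scale. In DRG footprints 2 rose and 3 fell, and Atp2a1 was the only one called in TE (0.63). Over all genes, 8.4% rose and 8.28% fell in DRG footprints, and 7.43% were called in TE. In SC mRNA Atp2b4 alone was called, a fall of 0.13 on the log2 scale, where 4.05% of all genes were called. In SC footprints 3 of the 8 tested fell and none rose (median log2 fold change −0.105). There 2.24% of all genes were called and 1.03% fell.

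Of 20 transporters and channels that draw on or share the ion gradients of the pump, 8 fell in DRG mRNA and none rose (median log2 fold change −0.07), where 32.9% of all genes were called and 17% fell. The largest falls were those of Slc1a2, the main glutamate transporter of astrocytes, with −0.84 (SE 0.0494), Slc12a5, the potassium-chloride cotransporter of central neurons, with −0.60 (SE 0.0995), and Slc6a11, a GABA transporter, with −0.56 (SE 0.0836). These 3 genes were far lower in sham DRG than in sham SC (log2 differences of −5.80, −5.90 and −5.14), and Slc1a2 was at 54.9 and 52.8 CPM in sham DRG and 31.8 and 28.0 CPM in SNI DRG. In DRG footprints 1 rose and 5 fell, and in TE 2 rose and 2 fell. Over all genes, 8.4% rose and 8.28% fell in DRG footprints, and 4.22% rose and 3.21% fell in TE. In SC, 4 of 20 fell in mRNA, where 4.05% of all genes were called and 1.96% fell, and 6 of 20 fell in footprints, where 2.24% were called and 1.03% fell. None rose in SC, and Slc1a2 was at −0.10 in mRNA and −0.09 in footprints, beside −0.08 and −0.10 for Atp1b2. The astrocyte markers, Slc1a2 among them, ran from −0.115 to 0.215 in SC mRNA and from −0.198 to 0.146 in SC footprints. Any link between Slc1a2 and Atp1b2 was not tested.

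Over the 8 mRNA libraries, the genes whose log2 CPM followed each pump gene most closely were Snap25, Hs3st4 and mt-Tp for Atp1b1 (Pearson r of 0.9992 or more), Sez6l2, Slc4a10 and Tspan7 for Atp1b2, Synm, Rtn4rl1 and Anxa7 for Atp1b3, Acadvl, Them6 and Msrb1 for Fxyd2, and Calca, Ttl and Kcnd1 for Fxyd7. The points share the contrast of the tissues, so most of each correlation is that contrast, and 1207 to 1487 of 10390 genes (10391 for Fxyd2) had an r over 0.99 with Atp1b2, Atp1b3, Fxyd2 or Fxyd7. For Atp1b1, which differed little between the tissues and fell in SNI DRG, there were 180 such genes.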

How the data were processed

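Ribosome profiling and mRNA sequencing were analysed for 16 libraries, grouped by the sample labels, with the 2 libraries of a replicate taken as 1 lysate. The authors made the deposited counts by filtering with Bowtie 1.1.2, mapping to GRCm38.p5 with STAR 2.5.2b and assigning reads to genes with HTSeq (version not given in the sources used here). The table also holds RPKM made by the authors from these counts and TE as a ratio of RPKM made by the authors. Neither was used for a value here, since the counts keep the depth.

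Counts were tested over the whole table with edgeR 4.0.16 in R 4.3.3 (quasi-likelihood, TMM within each assay). Genes were kept from 128 reads in total across a fit's libraries of 1 assay (for TE, in mRNA and in footprints), and a call was an adjusted p under 0.05. TE was the interaction of condition and assay with lysate terms. Each SE was derived from the test, as the absolute log2 fold change over the square root of its F statistic. It is not a standard error of the fit itself and can lie below counting noise. SNI was compared with sham in each tissue, sham DRG with sham SC, and the responses of the tissues as an interaction. Printed CPM were scaled by TMM over the 8 libraries of an assay, and log2 TE per lysate used 0.5 reads added to each count. The replicate libraries are separate pools of 10 mice per the labels, and whether a DRG and an SC pool of the same number hold the same mice is not given in the sources used here. The tests were tried on simulated counts before use.

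Sequences, positions and lengths came from GENCODE M21 on GRCm38, where all 5 genes were found by symbol, and were handled with Python 3.11.15 and Biopython 1.88. The fragments were dephosphorylated and ligated to a single linker, and whether HTSeq counted by strand is not given in the sources used here.

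The pump genes, the gene lists and the marker lists were chosen with earlier results of these data known. Named in the text were all 5 pump genes, up to 3 called genes with the largest change per list and comparison, and the 3 genes with the highest correlation to each pump gene among genes with 128 reads in every mRNA library. For the P-type pumps in DRG mRNA, 4 called genes were named. Marker genes named with a value were chosen after their values were seen. The catalytic subunit genes of the pump and 1 marker of the sensory neuron list are not reported here. Of the marker lists, those for Schwann cells, satellite glia, spinal cord neurons, endothelium and microglia and macrophages are given under other observations. The alternatives were DESeq2 1.42.0, library sizes alone, other filters, a replicate block, leaving out each replicate, a coefficient of variation fixed at 0.1, a test against a 1.5-fold change, all 4 conditions in 1 fit and, for TE, no lysate terms. Figures were drawn with matplotlib 3.10.9.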

Additional observations from a re-analysis of the deposited data

Results flagged for a closer look

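In 6 cases the response of a pump gene to SNI differed between the tissues by a test of the difference itself (edgeR interaction, DRG log2 fold change minus SC log2 fold change, with 2 libraries per group). In mRNA, the difference was −0.235 for Atp1b1 (SE 0.025, edgeR adjusted p = 4.57e-10), which fell in DRG, and it held under DESeq2 and without any single library. For Fxyd7 mRNA it was −0.133 (SE 0.0394, edgeR adjusted p = 0.0155), and this call was lost under DESeq2 (0.118) and without DRG SNI replicate 1 (0.0642), DRG sham replicate 2 (0.0776), SC SNI replicate 2 (0.249), SC sham replicate 1 (0.114) or SC sham replicate 2 (0.0774). In footprints, the difference was −0.128 for Atp1b1 (SE 0.0271, edgeR adjusted p = 0.00103). For Atp1b2 footprints it was 0.192 (SE 0.0425, edgeR adjusted p = 0.00168). Both held under DESeq2 and without any single library. For Atp1b3 footprints it was 0.193 (SE 0.0538, edgeR adjusted p = 0.0169), lost under DESeq2 (0.45) and without DRG SNI replicate 2 (0.0965), DRG sham replicate 1 (0.119), SC SNI replicate 1 (0.0844), SC SNI replicate 2 (0.0619) or SC sham replicate 1 (0.133). For Fxyd7 footprints it was −0.224 (SE 0.052, edgeR adjusted p = 0.00294), lost under DESeq2 (0.0998) and without SC sham replicate 2 (0.0741). With the coefficient of variation fixed at 0.1, and against a 1.5-fold change, none of the 6 passed. The 6 differences had the same sign under these alternatives, and their causes were not tested.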

How the results depend on the processing

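Depth limited Fxyd2 in SC (115 footprint reads), and 2 pools per group limit every p. With the coefficient of variation fixed at 0.1 and against a 1.5-fold change, the number of pump genes called became 0 in DRG mRNA (3 otherwise), DRG footprints (3), DRG TE (2), SC mRNA (1), SC footprints (1) and both interactions (2 in mRNA, 4 in footprints), and 1 and 0 for TE between the sham tissues (4 otherwise, with Fxyd2, which passed the filter only through DRG). With DESeq2 it was 1 in DRG footprints, 0 in DRG TE, SC mRNA and SC footprints, 1 in the mRNA interaction and 2 in the footprint interaction. With library sizes alone it was 1 in DRG mRNA. With no filter it was 2 in SC footprints. Leaving out each replicate gave 1 to 3 calls in DRG footprints, 1 to 2 in DRG TE, 0 to 1 in SC mRNA and 1 to 3 in the mRNA interaction. A comparison is listed for a setting only where its count moved more than 1.5-fold, so smaller moves are left out. Fxyd2 lost its DRG mRNA call with DESeq2 and with all 4 conditions in 1 fit. Fxyd7 lost its DRG footprint call with library sizes alone. Atp1b2 lost its sham TE call with no filter and gained one in the mRNA interaction with library sizes alone and with either other filter. The causes of these moves were not tested.

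The replicate numbers are not said to mark shared animals. The deviations of same-numbered libraries correlated with r of −0.001 to 0.18 between sham and SNI within a tissue and with r of −0.023 to 0.027 between DRG and SC within a surgery. With the number as a block, SC footprints had 2 calls in place of 1, Atp1b1 joining Atp1b2, and the number of pump genes called changed in no other comparison, while the calls over all genes went from 597 to 1005 in SC mRNA.

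Among single genes, 581 values kept their direction and side of the threshold, 77 lost and 9 gained a call, and 7 changed direction, none of them a call. The direction changed for Fxyd2 in DRG footprints with library sizes alone (0.001), Fxyd2 in SC mRNA without replicates in turn (−0.351 to 0.975, negative without SNI replicate 2), Atp1b3 in SC TE without replicates in turn (−0.081 to 0.018, positive without sham replicate 1), Atp1b3 in the mRNA interaction with library sizes alone (0.001), and Fxyd2 in the mRNA interaction (−1.011 to 0.317, positive without SC SNI replicate 2) and in the footprint interaction (−0.549 to 0.861, −0.549 without SC SNI replicate 1 and −0.324 without SC sham replicate 1). Over all genes, the fixed coefficient, the 1.5-fold test and DESeq2 gave 267, 105 and 2104 calls in DRG mRNA (4775 otherwise), 194, 79 and 725 in DRG footprints (2175), 18, 19 and 86 in DRG TE (944), 10, 6 and 57 in SC mRNA (597), and 66, 31 and 91 in SC footprints (269). The merged exonic length, an alternative chosen after seeing the data, moved the mRNA level per kilobase of Fxyd2 in sham DRG to 227.1.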

Other observations

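The other marker lists of the tissues are given as values. Over all genes, 15.9% rose and 17% fell in DRG mRNA, and 2.09% rose and 1.96% fell in SC mRNA. In DRG mRNA after SNI, 4 of 6 microglia and macrophage markers and 3 of 3 endothelial markers rose (median log2 fold changes 0.46 and 0.18), 1 of 5 Schwann cell markers rose and 2 fell (0.03), 1 of 4 satellite glia markers rose and 1 fell (0.04), and 6 of 8 spinal cord neuron markers fell (−0.40). In SC mRNA, 3 of 6 microglia and macrophage markers rose (median 0.32), 2 of 5 Schwann cell markers fell (−0.07), 1 of 8 spinal cord neuron markers fell (−0.03), 1 of 4 satellite glia markers rose and 1 fell (−0.03), 1 of 8 oligodendrocyte markers rose and 1 fell (0.03), and none of 3 endothelial markers was called by edgeR. Large myelinated sensory neuron markers in DRG footprints fell in 4 of 5 cases (median −0.35), where 8.28% of all genes fell.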
